A study of Mus musculus with 2 samples.

Results

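The genes described here encode the proteins of the large (60S) subunit of the cytoplasmic ribosome, the Rpl genes. They were chosen by name from tables of N6-methyladenosine (m6A) positions in RNA of mouse retinal organoids: a name had to read Rpl followed by a number or by p, with no hyphen, which leaves out copies named as pseudogenes. This gave 39 genes of 8262 named genes in the tables, 36 in replicate 1 and 38 in replicate 2. RefSeq lists 54 protein-coding symbols of this form in the mouse, and all 39 are among them.

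Both samples were wild-type organoids of the Rx:GFP line, a mouse stem cell line in which green fluorescent protein reports the eye-field gene Rx (Rax), taken at day 6 of differentiation with AGN at 0.1 µM throughout. Native poly(A) RNA was read by nanopore direct RNA sequencing (RNA002 chemistry), with a separate flow cell for each sample. The 2 libraries form 1 group, and their labels do not say whether they came from separate cultures, so the spread between them may be technical. They share a batch label as well as the line, genotype and treatment, so nothing below is a contrast between conditions. Of 10 eye-field and retinal progenitor markers, 9 were listed in both libraries. None of 5 pluripotency, 5 mesoderm and endoderm or 4 muscle and germ cell markers was listed, but absence from a list of motif positions does not show absence of the RNA.

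Ribosomal protein mRNAs are short, abundant and stable, and their translation is controlled together through a pyrimidine tract at the 5′ end. m6A is the most common internal modification of mRNA. The METTL3 and METTL14 complex places it on an adenosine within a short consensus, readers of the YTH family bind it, and it is best known for shortening mRNA half-life, so that m6A is usually described as sparse on housekeeping transcripts.

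Each listed position carries 1 of 4 motifs in DNA letters, AGACT (motif 1), GGACA (motif 2), GGACC (motif 3) or GGACT (motif 4), with its fraction modified, between 0 and 1, and its coverage, the number of reads over it. What the fraction was divided by is not given, so single fractions are printed without an interval. A site is a listed position with at least 20 reads, and 1 transcript per gene was kept, the one with the most sites shared by both libraries. Positions are the deposited end coordinates on the transcript. Which base of the motif they mark is not stated: of 108 listed positions of all genes in the first 46 nt of a transcript, the end fell on motif base 4, the one after the central A, in 23 when counted from the RefSeq start (GRCm38.p6), and on bases 2, 3 and 5 in 1, 3 and 1. In the other 80 it fell on no base of the motif, so the base marked remains unsettled. Placement in coding sequence or untranslated regions was not analysed here.

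The bases between motifs are not in the tables, but motifs of neighbouring sites can be laid out from their positions. The runs below are shown because they hold closely spaced adenosines described further on. Capitals mark the central A of each motif, and n is a base that the tables do not give.
Rpl7a, positions 191 and 196: ggAcaggAca
Rpl7l1, positions 1660 and 1669: ggAcannnnggAct
Rpl41, positions 490 and 502 of its kept transcript: ggAcannnnnnnggAct
Rpl9, positions 32 and 39 of a minor transcript: agActnnggAca

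Large subunit genes were listed at 171 positions in each library, on 92 transcripts in replicate 1 and 96 in replicate 2. With at least 20 reads and 1 transcript per gene, 68 sites in 35 genes were retained in replicate 1 and 70 sites in 33 genes in replicate 2. Of these, 58 sites in 33 genes were retained in both. Most genes had few: 18 had 1 shared site, 9 had 2, 4 had 3, Rpl8 had 4 and Rpl7l1 had 6. Retained sites per gene numbered 1.94 and 2.12 in the 2 replicates, against 1.75 and 1.76 for the small subunit (Rps) genes and 2.98 and 3.77 for the remaining genes. Sites on several transcripts were seen in 23 genes, and with all transcripts counted the shared sites numbered 99.

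The genes without a shared site were Rpl10a, Rpl12, Rpl18, Rpl28, Rpl30 and Rpl32. The first 3 and Rpl30 never exceeded 17 reads at a listed position. Rpl28 was listed in replicate 1 alone, with 75 reads, and Rpl32 had 44 reads there and 5 in replicate 2. A further 15 protein-coding genes of the RefSeq list were listed at no position in either library. They include the stalk proteins Rplp1 and Rplp2, the tunnel proteins Rpl17, Rpl23a and Rpl39, and Rpl6, Rpl7, Rpl10, Rpl36, Rpl37a and Rpl38. The others are Rpl32l and the paralogs Rpl3l, Rpl10l and Rpl39l. Whether their mRNAs lack these motifs or were examined and left out cannot be told from the tables.

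These mRNAs were read deeply. Median coverage of the retained sites was 370 reads in replicate 1 and 275 in replicate 2, against 35 and 37 reads at sites of genes outside both ribosomal families. Small subunit sites were deeper still, with medians of 1450 and 2203 reads. At least 1000 reads covered 25 large subunit sites in replicate 1 and 32 in replicate 2, and the same depth was reached at 21 and 55 sites of all genes outside the ribosomal families. The deepest sites include those of Rpl13a (position 648), Rplp0 (609 and 515) and Rpl13 (559).

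The P stalk is the flexible arm of the subunit that recruits the translation factor GTPases, and Rplp0 (chromosome 5, 115697526 to 115701786, gene coordinates here and below as deposited) is its anchor. Its GGACC site at position 515 was almost fully modified, with fractions of 0.978 and 0.976 in replicates 1 and 2 (1802 and 3154 reads); pairs of values below keep this order. That is the highest GGACC value among the large subunit sites with at least 50 reads in both. The AGACT site at position 609 had 0.705 over 1835 and 0.729 over 3217 reads. Both sites were therefore mostly modified in both libraries, on motifs whose medians in other genes lay between 0.222 and 0.267. A GGACC at position 403 of the same transcript had 0.194 over 1756 reads in replicate 1 and was not listed in replicate 2, where position 515, 112 nt away, had 3154 reads. Rpl12, at the base of the stalk, was listed with at most 7 reads.

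Rpl5 and Rpl11 carry 5S rRNA into the subunit and, when free, bind the p53 regulator Mdm2. The AGACT site of Rpl11 (chromosome 4, 135755576 to 135780739) at position 137 had 0.793 over 1200 reads and 0.760 over 1902 reads, the highest AGACT value among shared sites. Rpl5 (chromosome 5, 108048368 to 108056871) had a GGACA at position 262 with 0.488 over 1137 and 0.502 over 2052 reads. The 2 genes of this particle thus differed in an order opposite to that of their motifs' medians.

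Among proteins that reach towards the catalytic centre or hold tRNA, shared sites ranged from 0.0430 to 0.944. Rpl8 (chromosome 15, 76788278 to 76790514), next to the peptidyl transferase centre, had 4 shared sites. Its GGACA at position 267 had 0.944 and 0.940, and its AGACT at position 486 had 0.528 and 0.567. The GGACT at position 777 had 0.579 and 0.573, while the AGACT at position 41 had 0.180 and 0.199. All 4 were covered by at least 1223 reads in replicate 1 and 1996 in replicate 2, so sites of 1 mRNA differed far more than the replicates did, also within the motif AGACT. In Rpl3 (chromosome 15, 79961992 to 79976069), which also lies near that centre, both shared sites were low: the GGACC at position 1198 had 0.0435 and 0.0430, and the GGACC at position 1248 had 0.112 and 0.13. The first is the lowest GGACC value above that same limit of 50 reads. Rpl36a had an AGACT at position 541 with 0.345 over 40 reads and 0.276 over 84 reads. On its deepest transcript an AGACT at position 218 had 0.228 over 794 reads and 0.223 over 1151 reads. Rpl10 was not listed.

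Of the 8 proteins that line the exit tunnel of the nascent chain or ring its opening, 5 had a shared site, 1 each. Rpl31 and Rpl26 marked the ends of the range. Rpl31 (chromosome 1, 39406923 to 39410992) had a GGACC at position 907 with 1 over 21 reads and 0.956 over 51 reads. The GGACA of Rpl26 (chromosome 11, 68792409 to 68797815) at position 228 had 0.0908 over 1532 reads and 0.0990 over 2280 reads. This was the lowest GGACA value among shared sites, on the motif with the highest median. Between them lay the AGACT of Rpl19 with 0.665 and 0.667, the GGACC of Rpl4 with 0.271 and 0.273, and the AGACT of Rpl35 with 0.151 and 0.127.

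At the face towards the small subunit, Rpl24 (chromosome 16, 55786638 to 55791798) held the highest GGACT site with at least 50 reads in both on kept transcripts, position 314, with 0.770 over 921 reads and 0.764 over 1470 reads. A GGACC 84 nt upstream, at position 230, had 0.264 and 0.242. Rpl41 (chromosome 10, 128383983 to 128385174), which encodes a very small basic peptide that bridges the subunits, had a GGACA at position 490 with 0.917 and 0.950 over 32 and 40 reads. Its GGACT sites at positions 502 and 630 had 0.25 and 0.4, and 0.346 and 0.310. The adenosines of the first pair, 12 nt apart, were thus above 0.9 at the first and below 0.5 at the second in both libraries. The second rests on 32 and 40 reads of this shallow isoform, and no other Rpl41 transcript was listed with a GGACT 12 nt after its GGACA, so it is uncertain as a site of the gene. Rpl23 had a GGACC at position 959 with 0.278 and 0.371, and a GGACA at position 877 with 0.696 over 31 reads and 0.429 over 54 reads. The GGACA was the only large subunit site that differed by more than 0.2 between replicates, 1 of 58, where the same was seen at 6.03% of the 4894 shared sites of all genes.

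Among the other core proteins, Rpl7a (chromosome 2, 26800776 to 26803330), a protein of the rRNA surface, carried 2 adjoining GGACA motifs printed above. Position 191 had 0.985 over 1170 reads and 0.981 over 1999 reads, the highest GGACA value among shared sites, and position 196 had 0.906 over 1170 and 0.930 over 2003 reads. Both adenosines were thus near complete, while a GGACC at position 735 had 0.174 and 0.147. Rpl9 (chromosome 5, 65545707 to 65548787) had 0.963 and 0.961 at a GGACA (position 459) and 0.804 and 0.794 at a GGACA (position 103).

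Low values were also found at great depth in this group. Rpl13 (chromosome 8, 123829089 to 123831983) went from 0.785 and 0.765 at a GGACA (position 171) to 0.303 and 0.311 at a GGACC (position 399) and 0.115 and 0.109 at a GGACC (position 559), each with at least 1686 reads. The GGACT of Rpl13a at position 648 had 0.146 over 2134 reads and 0.136 over 3529 reads, the lowest GGACT value with at least 50 reads in both on kept transcripts. Other transcripts of Rpl22l1 were lower, as given further on. Rpl13a is also known for a role outside the ribosome in silencing inflammatory mRNAs. In Rpl22 (chromosome 4, 152410199 to 152418528), an RNA-binding protein that is dispensable for the ribosome in many cells, all 3 shared sites of the kept transcript were low. They had 0.316 and 0.280 at the GGACT (position 87), 0.177 and 0.172 at the GGACA (position 405), and 0.0385 and 0.0727 at the GGACC (position 1864). The gene also held a high GGACA at position 498 of that transcript, with 1 over 17 reads, under the minimum of 20, and 0.972 over 36 reads. On a second transcript a GGACA at position 500 had 0.875 over 26 reads and 0.976 over 47 reads. Sites of Rpl22 thus ran from near 0 to near complete.

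Further sites of this group are given by motif. The GGACA of Rpl15 at position 780 had 0.885 and 0.867, that of Rpl35a at position 385 had 0.652 and 0.670, and that of Rpl27a at position 1041 had 0.323 and 0.314. The GGACT of Rpl21 at position 722 had 0.587 and 0.610, and the GGACC of Rpl14 at position 216 had 0.528 and 0.601. The GGACC of Rpl27 at position 588 had 0.190 and 0.264, with 0.158 and 0.177 at position 470 of a deeper transcript (712 and 1070 reads), and the GGACT of Rpl29 at position 647 had 0.376 and 0.353. The replicates lay within 0.0228 of each other for all of these but Rpl14 and the shallower Rpl27 transcript (162 and 233 reads).

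Rpl37 and its retrotransposed copy Rpl37rt each had 1 GGACT site. In Rpl37 the fraction at position 251 was 0.279 over 1278 reads and 0.271 over 1601 reads. In Rpl37rt, at position 265, it was 0.322 over 121 reads and 0.207 over 153 reads. The values of the parent gene lay between those of the copy, and how reads were divided between such near-identical transcripts is not stated.

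Of the 6 paralogs in RefSeq, 3 had shared sites. Rpl7l1 (chromosome 17, 47084833 to 47093598), a nucleolar relative of Rpl7, was listed at 12 positions between 531 and 2362, none with more than 58 reads in replicate 1 or 97 in the other. Of its shared GGACA sites, those at positions 1482, 1562, 1660 and 1840 gave 0.923 and 0.917, 0.708 and 0.805, 0.710 and 0.546, and 0.833 and 0.756. Its AGACT at position 1087 had 0.465 and 0.528. Its GGACT at position 1669, 9 nt from the GGACA at 1660, had 0.121 and 0.259. Of the 11 large subunit shared sites past position 1000, which lay in 5 genes, 6 were of Rpl7l1. The paralog Rpl22l1 was low at both its sites, with 0.167 and 0.190 at position 458 and 0.0345 and 0.0870 at position 515 of the kept transcript, over 29 to 36 reads. Rpl36al had a GGACT at position 159 with 0.470 over 182 reads and 0.422 over 311 reads.

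**Figure D1:**
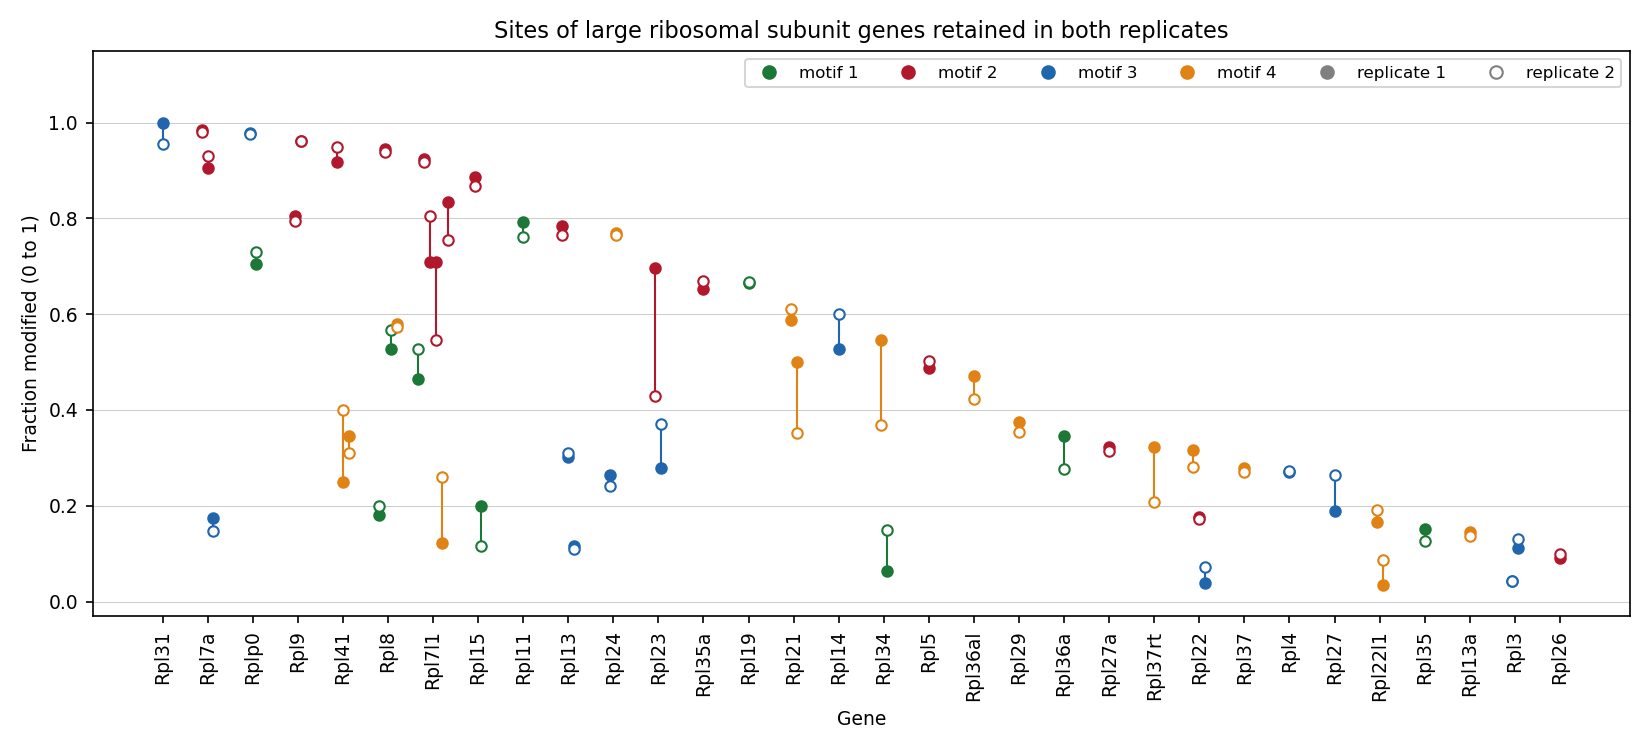
Fraction modified (0 to 1) at 57 sites of 32 genes retained in both replicates, grouped by gene and ordered by each gene's highest value. Filled points are replicate 1, open points replicate 2, a line joins a site's values, and colours stand for the motifs AGACT (motif 1), GGACA (motif 2), GGACC (motif 3) and GGACT (motif 4). The highest values, above 0.9, are 6 GGACA sites and the GGACC sites of Rpl31 and Rplp0, while sites of 1 gene, such as Rpl7a and Rpl8, can lie far apart.

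Whether these mRNAs are less modified than others was asked motif by motif, since fractions differ between motifs. At GGACA the median of large subunit sites was 0.819 in replicate 1 (22 sites) and 0.780 in replicate 2 (22 sites), against 0.670 and 0.661 in all other genes. The difference was 0.134 ± 0.0217 (SD, n = 2), higher in both replicates. At GGACT the medians were 0.346 and 0.295, against 0.240 and 0.224, a difference of 0.0889 ± 0.0252 (SD, n = 2). At AGACT they were 0.412 and 0.308 against 0.267 and 0.263, a difference of 0.0948 ± 0.0711 (SD, n = 2), of which 0.145 came from replicate 1 and 0.0445 from replicate 2. At GGACC they were 0.264 and 0.242 against 0.222 and 0.231, a difference of 0.0262 ± 0.0220 (SD, n = 2). Large subunit medians were thus above those of other genes in both replicates for every motif. Over all motifs together the gap was 0.105 in replicate 1 but 0.016 in replicate 2 (0.0603 ± 0.0627, SD, n = 2). The gap was well above the SD between replicates for GGACA and for GGACT, but close to it for AGACT and for GGACC. That SD compares 2 libraries that read largely the same sites, so it does not measure the spread between sites or genes. The sign of the GGACC gap turned, to -0.0517, when all transcripts were counted. An exact paired permutation test over 2 replicates, two-sided, gave p = 0.5 for each motif, the smallest value it can give.

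These gaps between medians rest on few sites and move with the selection of sites. With sites of at least 100 reads on both sides, the difference was 0.239 at AGACT (8 and 7 large subunit sites) and 0.183 at GGACA (12 and 12). Without the genes that have a listed pseudogene copy, the GGACA difference was 0.0777. With all transcripts, the GGACT difference was 0.0296, and with the deepest transcript of each gene, 0.0496, from 0.0718 in replicate 1 and 0.0275 in replicate 2.

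**Figure D2:**
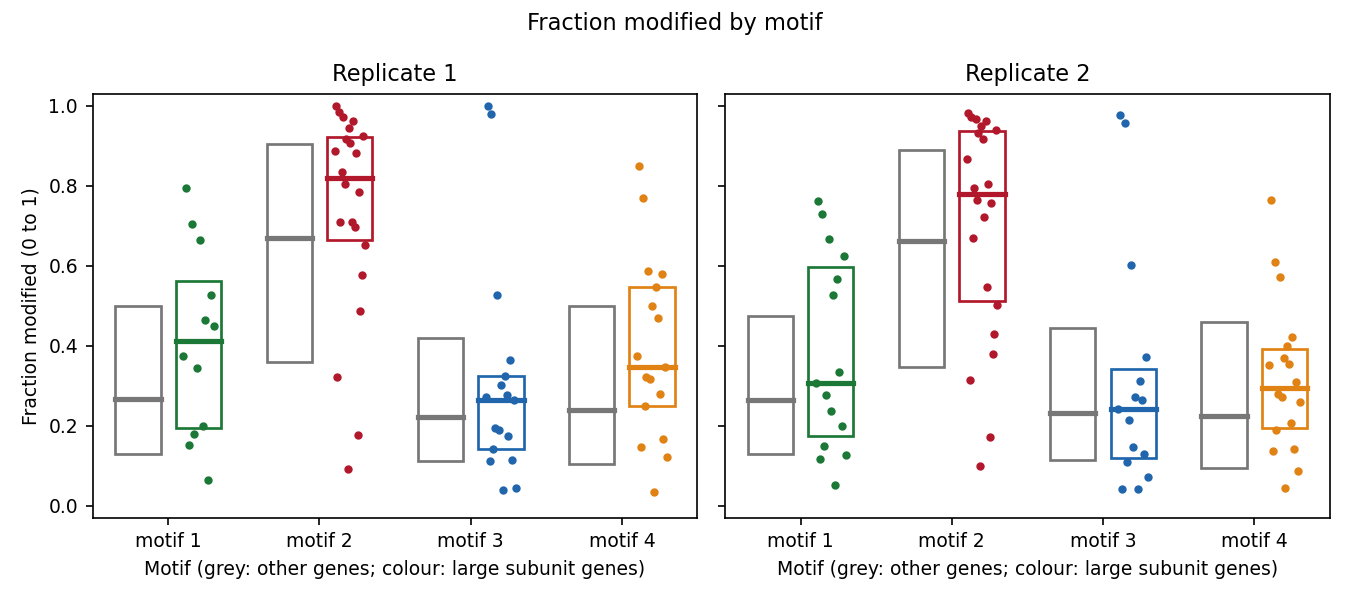
Fraction modified (0 to 1) by motif in each replicate. Boxes span the interquartile range with the median as a thick line, grey for all other genes and coloured for large subunit genes, whose single sites are points; motif 1 is AGACT, 2 GGACA, 3 GGACC and 4 GGACT. The coloured medians of 0.819 and 0.780 at motif 2 lie above the grey ones of 0.670 and 0.661.

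By counts, 24 of the 58 shared large subunit sites (41.4%, 95% Wilson interval 29.6% to 54.2%, counting error only) had a fraction of at least 0.5 in both replicates, where the same held for 36.1% of all 4894 shared sites. The interval includes that background share. It treats sites as independent, though several share a gene and all come from the same libraries, so it is no test of the difference. At GGACA the count was 14 of 19, beside 61.9% of all shared GGACA sites. It was 4 of 10 at AGACT (20.8% of all), 3 of 13 at GGACC (16.4%) and 3 of 16 at GGACT (22.7%). The 4 AGACT sites were those of Rpl8 (position 486), Rpl11, Rpl19 and Rplp0. The 3 GGACC sites were those of Rpl14, Rpl31 and Rplp0, and the 3 GGACT sites those of Rpl8, Rpl21 and Rpl24.

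A fraction of at least 0.9 in both replicates was found at 9 of the 58 sites, beside 9.36% of all shared sites. They were 7 GGACA sites, among them those of Rpl7a (both adjoining motifs), Rpl8, Rpl9, Rpl41 and Rpl7l1, and the GGACC sites of Rplp0 and Rpl31. Of all shared sites, 20.5% at GGACA and 2.32% at GGACC reached this level, and of large subunit sites 7 of 19 and 2 of 13. The Rpl41 site counted here is that of the kept transcript, over 32 and 40 reads. On the deepest Rpl41 transcript the GGACA had 0.855 and 0.881, under 0.9, so these counts depend on the transcript kept. A fraction under 0.1 in both was found at 4 sites, in Rpl3, Rpl22, Rpl22l1 and Rpl26, beside 9.77% of all shared sites.

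The small subunit genes are the nearest group for comparison. Over all motifs the median of large subunit sites was 0.458 and 0.361 in the 2 replicates, against 0.550 and 0.489 in small subunit sites (35 and 37). The difference was -0.110 ± 0.0258 (SD, n = 2; exact paired permutation test, two-sided p = 0.5, the smallest possible). By motif it did not run 1 way. At AGACT the large subunit median was lower by 0.228 in replicate 1 and 0.255 in replicate 2, with 6 and 5 small subunit sites, whereas at GGACA it was higher by 0.127 and 0.203, with 12 and 15 small subunit sites. Taking 1 mean per gene, the difference over all motifs was -0.0361 ± 0.0183 (SD, n = 2).

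The motif mix of large subunit sites was near that of genes outside the ribosomal families. GGACA made up 32.4% and 31.4% of sites, against 36.2% and 35.7%, and GGACT 25% and 25.7%, against 23.5% and 24.3%. Their median position was 523 in replicate 1 and 574 in replicate 2, against 1056 and 1336, and 19.1% and 22.9% of sites lay past position 1000, against 52.7% and 63.5%. Small subunit sites lay nearer still to the start of the transcript, with median positions of 327 and 346 and none past position 1000. These mRNAs are short, and transcript lengths were not used here. Restricting all genes to positions 1 to 1000 gave differences of 0.181 for GGACA, 0.0991 for GGACT, 0.0598 for GGACC and 0.0684 for AGACT, the last from 0.113 in replicate 1 and 0.0242 in replicate 2.

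Several genes carried the same motif pair, at the same spacing, on more than 1 transcript, so that their values could be compared between isoforms. Transcripts are counted here only where both sites had at least 20 reads in both libraries; shallower transcripts of Rpl41 and Rpl22l1 with the same pairs were listed too and are not in these counts and ranges. In Rpl41 a GGACA lay 140 nt upstream of a GGACT on 5 such transcripts. On the deepest, over 2604 to 3429 reads, the GGACA had 0.855 and 0.881 and the GGACT 0.251 and 0.235. Over all 5 transcripts and both replicates the GGACA ranged from 0.833 to 0.950 and the GGACT from 0.192 to 0.346, so the ranges did not overlap. Coverage went from 32 to 3429 reads, and the kept transcript of this gene is the shallowest of the 5.

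The same held at lower levels in other genes. In Rpl22l1 GGACT motifs lay 57 nt apart on 3 such transcripts, and the upstream one ranged from 0.167 to 0.237 and the downstream one from 0.0345 to 0.0870. On the transcript with 632 and 816 reads they had 0.235 and 0.230, and 0.0521 and 0.0427. In Rpl3 GGACC motifs lay 50 nt apart on 3 transcripts, and the upstream one, from 0.0213 to 0.0952, was below the downstream one, from 0.112 to 0.180, on each transcript in both replicates. In Rpl22l1 and Rpl3 both sites of the pair carry the same motif. In Rpl22 a GGACT and a GGACC lay 1777 nt apart on 2 transcripts, with ranges of 0.247 to 0.316 and 0.0385 to 0.0952. Reads of isoforms that share sequence may have been assigned to either, or to several, which the tables do not state, so the isoforms are not independent measurements.

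**Figure D3:**
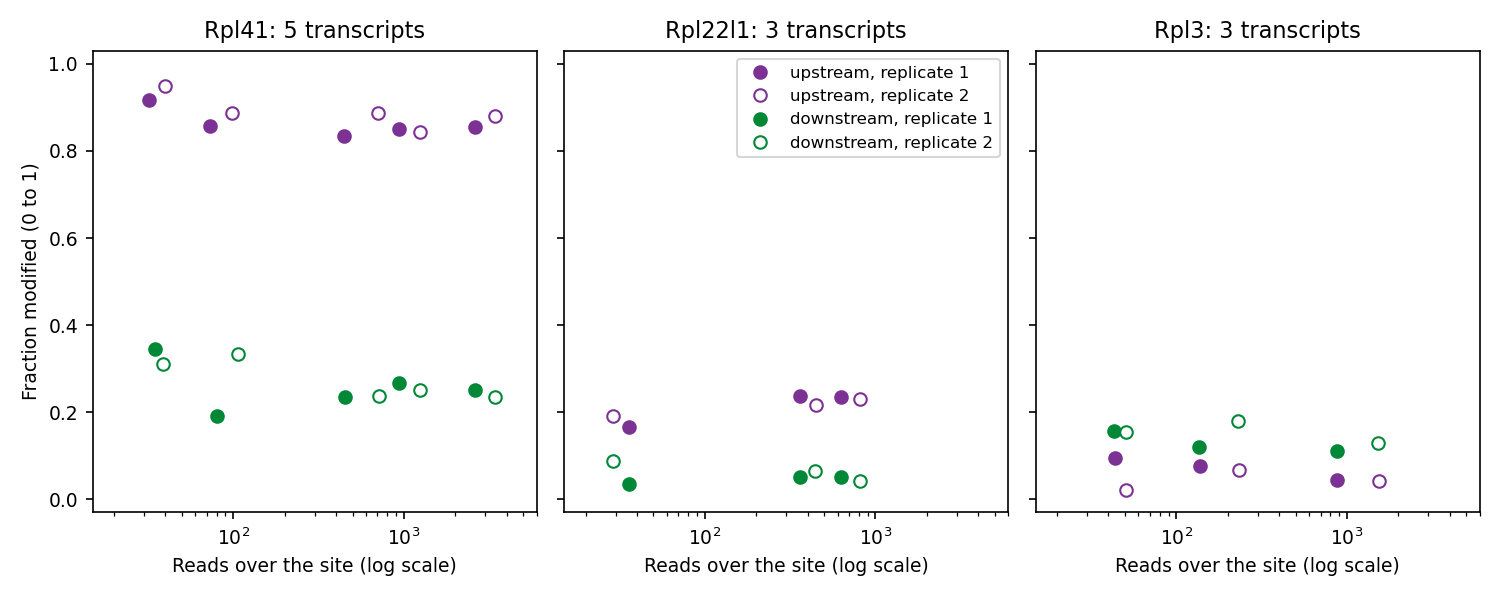
Fraction modified (0 to 1) against reads over the site (log scale) for motif pairs at a fixed spacing, with at least 20 reads at both sites in both libraries, on 5 transcripts of Rpl41 and 3 each of Rpl22l1 and Rpl3. Purple points are the upstream site, green the downstream site, filled replicate 1 and open replicate 2. In Rpl41 the upstream site lies at 0.833 to 0.950 and the downstream site at 0.192 to 0.346 from 32 to 3429 reads.

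Copies of these genes were also listed under pseudogene names. There were 17 such names, with a median coverage of 10 reads in replicate 1 and 11 in replicate 2 and a maximum of 109 and 167. RefSeq lists 202 pseudogene symbols of large subunit genes, and 10 of the 39 genes had a listed pseudogene of their own base name. The adjoining GGACA pair of Rpl7a recurred on Rpl7a-ps11 and Rpl7a-ps5, at 6 to 11 reads. All 6 positions listed for Rpl9-ps6 recurred, 18 nt closer to the start, on transcript ENSMUST00000120094.4 of Rpl9, on which no position exceeded 25 reads, while Rpl9-ps6 itself had 80 to 125 reads. Only 2 of them, the GGACA motifs at positions 103 and 459, were listed on the main Rpl9 transcript, which had 1127 to 1899 reads there. In the run printed above, position 32 had 0.556 over 24 reads in replicate 2 only, and position 39 had 0.889 over 14 reads and 0.636 over 24 reads. Of the 6 positions, 4 were also listed on a further Rpl9 transcript, 11 nt closer to the start, over only 5 to 7 reads. The extra motifs of ENSMUST00000120094.4, the printed run included, are therefore uncertain as sites of Rpl9.

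Replicates lay close together at these depths. Taking replicate 1 from replicate 2, the 58 sites had a median difference of -0.0047. The median absolute difference was 0.0239, against 0.0523 at 4808 shared sites of genes outside the ribosomal families. Within classes of depth the order held from 100 reads on but not below. At 24 large subunit sites with at least 1000 reads in both, the median absolute difference was 0.0100 and the largest 0.0394, against 0.0122 and 0.0699 at 20 sites of the other genes. At 14 sites with 100 to under 1000 reads it was 0.0227, against 0.0259, and at 20 sites with 20 to under 100 reads 0.0733, against 0.0579. Among 42 sites covered by at least 50 reads in each library, those that differed most were in Rpl34, Rpl21, Rpl37rt and Rpl15. The GGACT of Rpl34 at position 115 had 0.546 and 0.368 over 53 and 57 reads, and its AGACT at position 181 had 0.0638 and 0.149. The GGACT of Rpl21 at position 811 had 0.5 and 0.353 over 72 and 95 reads, and the AGACT of Rpl15 at position 1820 had 0.2 and 0.117.

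Coverage was higher in replicate 2 at most sites, and the median ratio was smaller at ribosomal sites. The median ratio of replicate 2 to replicate 1 was 1.61 at large subunit sites (interquartile range 1.51 to 1.75), 1.53 at small subunit sites (1.48 to 1.57) and 2.01 at the remaining 4808 sites (1.69 to 2.41). At sites with at least 1000 reads in replicate 1 it was 1.60 over 24 large subunit sites, 1.53 over 22 small subunit sites and 1.73 over 20 other sites. The ranges overlapped, from 1.25 to 1.81 at large subunit sites and from 1.55 to 2.12 at other sites. Low ratios were not particular to ribosomal genes. Among the other sites, those of Atp5e and Cox7a2 had 1.35 and 1.42, whereas a site of Ctnnb1 had 3.36. This is 1 ratio between 2 libraries, with no replicate of its own, and in bulk RNA fewer cells of a type and less RNA per cell cannot be told apart. Transcript lengths were not used here, and the cause of the differing ratios was not tested.

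**Figure D4:**
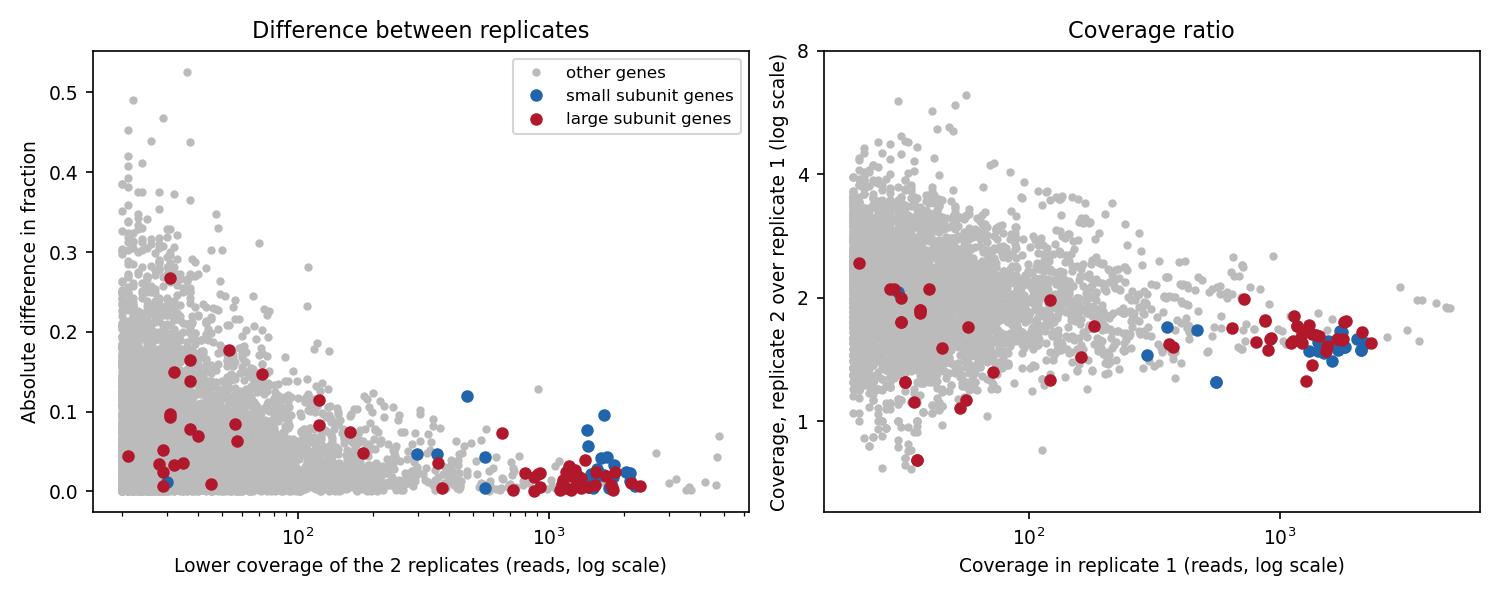
Left, absolute difference in fraction between replicates against the lower of both coverages (reads, log scale). Right, coverage in replicate 2 over replicate 1 against coverage in replicate 1 (both log scales). Each point is a site retained in both, red for large subunit, blue for small subunit and grey for other genes; the 24 deepest red points differ by at most 0.0394, and the red points centre on a ratio of 1.61 against 2.01 for grey.

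Some sites were listed in a single library although a nearby listed position had at least 20 reads in the other. Counting all transcripts, 6 of 117 large subunit sites of replicate 1 (beside 9.72% of all 6463 sites) and 5 of 126 of replicate 2 (beside 3.12% of 16212) were not listed in the other library, while a listed position within 200 nt on the same transcript had at least 20 reads there. They include the Rplp0 site at position 403 and, in replicate 2, a GGACA of Rpl22 at position 407 of a second transcript, with 0.189 over 602 reads. The nearby position had 3154 reads for the Rplp0 site. For all the others it had only 24 to 76 reads, with 26 for this Rpl22 site. In Rpl34 the AGACT at position 247 of its deepest transcript had 0.374 over 1610 reads in replicate 1, and that of the kept transcript, at position 383, also had 0.374, over 229 reads. Neither position was listed in replicate 2. These Rpl34 sites are not in the counts above, since no position within 200 nt on their transcripts was listed there. For such sites the tables give 1 value, and the other library's fraction is not known here.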

How the data were processed

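Per the labels' protocols, poly(A)-selected RNA of 2 libraries was sequenced with the SQK-RNA002 kit. The authors deposited, per library, a table of positions with a fraction modified (0 to 1) and a coverage, a whole-number count of reads, as the file headers name them. The base caller, aligner and modification caller are not given in the sources used here. The submitters' processing notes name mm10, yet only 1 of 39 deposited gene starts lay within 1000 bases of RefSeq GRCm38.p6, so genome coordinates are printed as deposited. RefSeq served for gene names and for the check of which motif base a position marks. No position had under 5 reads.

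Sites (20 or more reads) were matched on transcript version and end coordinate. Per gene, the transcript with the most shared sites was kept (ties by sites in either library, then summed coverage). Medians were compared within each library by motif (Python 3.11.15, pandas 2.3.3), with mean and SD over 2 replicates. The summary was tested on simulated fractions in which all sites of 1 motif and gene set shared 1 true value. That test leaves out the spread between sites. The tables named minus, with no large subunit position, were not used. The genes and lists were chosen with earlier results of these data known. Every gene with a shared site could be named. Given in full are the 10 genes with the most shared sites, the highest and lowest site of each motif and the 5 largest replicate differences (both with 50 or more reads in each library), and the 5 deepest sites, except that 1 gene is in the counts but not reported here. Pairs on several transcripts, pseudogene copies and sites listed in 1 library were chosen after their values were seen.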

Additional observations from a re-analysis of the deposited data

How the results depend on the processing

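Of 70 alternative values, those by single replicate left out, 49 stayed within set limits. The limit was the SD between replicates for differences between gene sets, and 1.5 times for counts. It was the 95% Wilson interval for the share at 0.5 or more, and the SD over the 58 shared sites for the replicate difference. The GGACC difference reversed to -0.0159 ± 0.0225 (SD, n = 2) from 5 reads on, a value smaller than its spread. It also reversed to -0.0517 with all transcripts and -0.0348 with the deepest transcript per gene (added after seeing the data). It rose to 0.0598 at positions 1 to 1000 and 0.0485 from 100 reads on. The AGACT difference rose to 0.239 from 100 reads on. The GGACA difference moved to 0.167 (5 reads), 0.181 (positions 1 to 1000), 0.183 (100 reads), 0.0777 (without genes with a listed pseudogene) and 0.166 (without paralogs). The GGACT difference moved to 0.0636 (5 reads), 0.0296 (all transcripts), 0.125 (without paralogs) and 0.0496 (deepest transcript). The difference from small subunit genes moved to -0.141 (5 reads), -0.143 (50 reads), -0.191 (all transcripts) and -0.0361 (1 mean per gene). Shared sites numbered 99 with all transcripts, and a threshold of 0.7 gave 29.3% in place of 41.4%. The cause was not tested, except that a higher threshold and more transcripts change these counts by construction. Apart from GGACC, each motif's difference kept its sign under every alternative run. By single replicate the differences ran from 0.0445 to 0.145 (AGACT), from 0.118 to 0.149 (GGACA), from 0.0107 to 0.0418 (GGACC), from 0.0711 to 0.107 (GGACT) and from -0.128 to -0.0919 against small subunit genes; with 1 library no spread is left, so these are given as values only. No paired analysis was possible because the samples form 1 group, so no number pairs samples across groups; the exact paired test compares gene sets within each library. Depth limits the shallow sites: at 20 to under 100 reads the large subunit sites differed by a median of 0.0733 between replicates.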
